A study of Mus musculus with 8 samples.

Results

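The interferon response genes described here comprised 43 named mouse genes: the antiviral genes that interferon switches on, the sensors that detect foreign RNA, the transcription factors of the pathway and its receptors. They were picked by gene symbol, with earlier results of these arrays known, and 42 of the 43 had a row in the table of 22206 rows. Ifi44 was named by 0 rows and was not analysed here. RNA came from the left ventricle of untreated male C57/BL6J mice aged 8 weeks, on 8 arrays that are each read as 1 mouse. Of these, 4 were wild type and 4 carried microRNA-100 (miR-100) overexpression restricted to the heart. What drives the overexpression, how many founder lines there were and which mice were littermates is not stated in the labels. The question of the comparison is which transcripts differ when this microRNA is raised in an otherwise untreated heart.

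Interferons are secreted proteins that warn cells of infection. Type I interferons act through the receptor of Ifnar1 and Ifnar2, which activates a complex that holds Stat2 and Irf9 and binds the interferon-stimulated response element (ISRE) in promoters. Type II interferon, or interferon gamma, acts through the receptor of Ifngr1 and Ifngr2 and leads to binding at the gamma-activated site (GAS), and it is known above all for raising antigen presentation and the immunity-related GTPases. Heart muscle cells, fibroblasts, endothelial cells and resident macrophages of the heart can all answer these signals. The members were therefore sorted by their usual inducer, with 21 measured genes in the type I class, 10 in the type II class and 11 in neither, the last holding receptors, constitutive factors and genes that both interferons induce.

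The agent itself and the promoter letters are shown first, because the ISRE and the GAS are the elements through which the 2 types of interferon are known to act. RefSeq (GRCm38.p6) gives the 5 prime arm of miR-100, with bases 2 to 8, the seed that pairs with target RNA, in capitals:

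mmu-miR-100-5p: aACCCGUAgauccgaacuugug

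It lies at chr9:41531437-41531458 on the plus strand. The labels do not say which arm was raised, and 0 rows of the array carried the name Mir100, so the overexpression was not checked here.

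Promoters of 300 bases, 250 before and 50 after the annotated start, were found in the RefSeq table for 37 of the 43 genes. The letters of the ISRE (GAAA, then 2 bases of any kind, then GAAA) and of the GAS (TTCNNNGAA) were searched on both strands, and the GAS letters read the same on either strand. ISRE letters lay in the promoters of 10 of 16 type I genes and 5 of 10 type II genes, against 3.99% of 27025 genes (3.44% of 32851 promoters). GAS letters lay in 5 of 16 type I genes and 5 of 10 type II genes, against 9.55% of all genes (8.3% of all promoters). The stretches below hold the ISRE letters in capitals for 5 type I genes with positive differences in the miR-100 hearts:

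Ifit1: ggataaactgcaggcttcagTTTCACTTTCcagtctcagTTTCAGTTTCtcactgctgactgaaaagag
Ifit3: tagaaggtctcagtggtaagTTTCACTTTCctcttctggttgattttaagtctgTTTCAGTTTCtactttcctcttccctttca
Oas1a: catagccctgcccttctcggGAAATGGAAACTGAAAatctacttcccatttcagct
Eif2ak2: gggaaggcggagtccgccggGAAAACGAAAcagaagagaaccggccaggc
Ifih1: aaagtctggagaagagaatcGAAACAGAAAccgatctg

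They lie, in that order, at chr19:34640765-34640833 (plus strand), chr19:34583353-34583436 (plus), chr5:120907510-120907565 (minus), chr17:78882525-78882574 (minus) and chr2:62646206-62646243 (minus), all GRCm38.p6. Ifit1 and Ifit3 each held 2 separate copies upstream of the start, on the same strand and with the same letters in both genes. In Oas1a 2 copies overlapped, and in Eif2ak2 and Ifih1 the letters lay after the start.

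The same letters were present in type I genes with smaller differences, at 0.16 for Isg15, -0.14 for Rsad2 and -0.05 for Ddx58. They also lay in GTPase genes of the type II class, shown here for Gbp3, which differed by 0.36, and Irgm1, which differed by -0.05:

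Isg15: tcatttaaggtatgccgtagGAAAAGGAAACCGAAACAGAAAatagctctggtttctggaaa
Rsad2: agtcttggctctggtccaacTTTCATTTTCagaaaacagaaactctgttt
Ddx58: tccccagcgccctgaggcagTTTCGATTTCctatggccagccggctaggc
Gbp3: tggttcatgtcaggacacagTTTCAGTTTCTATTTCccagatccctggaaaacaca
Irgm1: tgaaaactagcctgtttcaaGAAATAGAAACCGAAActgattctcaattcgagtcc

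These stretches lie at chr4:156200855-156200916 (minus strand), chr12:26456543-26456592 (minus), chr4:40239794-40239843 (minus), chr3:142559979-142560034 (plus) and chr11:48871415-48871470 (minus). Isg15 held 3 overlapping copies, and Gbp3 and Irgm1 held 2 overlapping copies each.

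GAS letters, in capitals, were found in 3 type II genes without ISRE letters, Irf8, Irf1 and Psmb8:

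Irf8: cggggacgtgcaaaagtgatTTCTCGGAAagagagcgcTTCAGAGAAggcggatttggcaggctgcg
Irf1: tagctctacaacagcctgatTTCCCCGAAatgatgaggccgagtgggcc
Psmb8: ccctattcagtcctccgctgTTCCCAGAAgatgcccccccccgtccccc

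They lie at chr8:120736167-120736233, chr11:53769904-53769952 and chr17:34198078-34198126, all on the plus strand. Overlaps between ISRE and GAS letters occurred in Bst2 and Ifitm3. A match of letters is a description of the sequence and not a binding site.

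**Figure D1:**
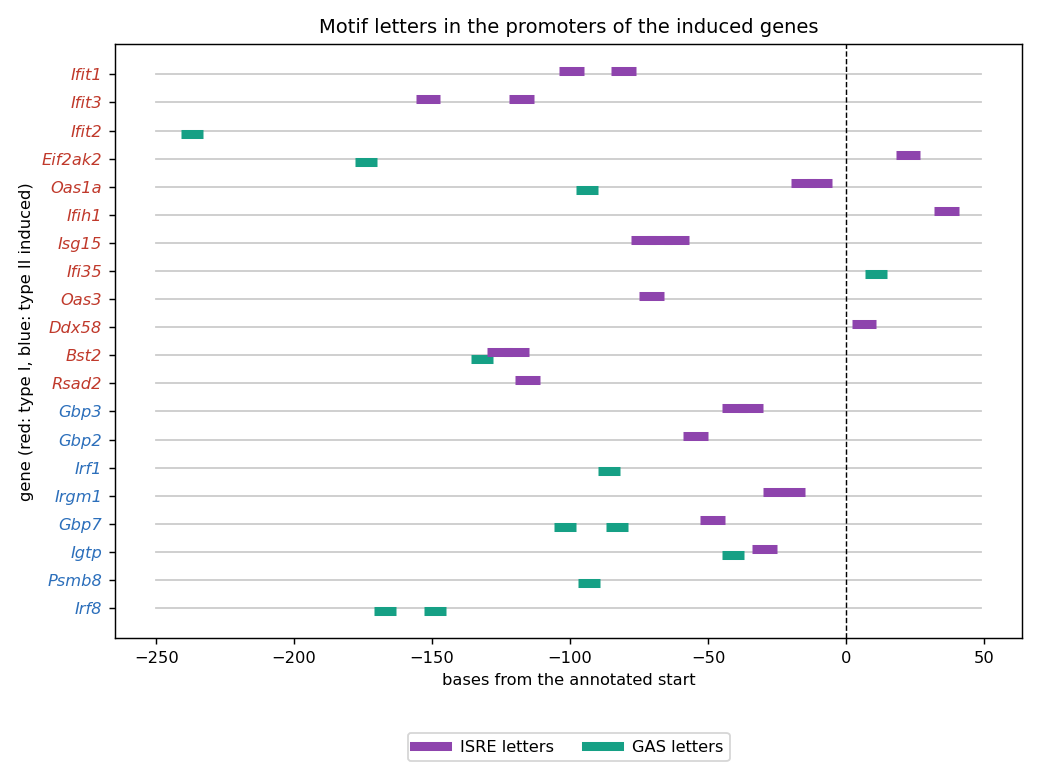
Position of ISRE letters (purple) and GAS letters (green) in the promoters of type I (red names) and type II (blue names) induced members, in bases from the annotated start (dashed line). Genes are ordered within a class by their difference between miR-100 and wild type hearts, and genes without either motif are not drawn. ISRE letters are seen at the top and the bottom of the type I order.

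All values below are log2 signals, so a difference of 1 is a doubling or halving, and differences are miR-100 minus wild type. The arrays were alike in scale, with medians between 5.70 and 5.74, and differences over all rows had a median of -0.015. The wild type arrays lay below 0 and the miR-100 arrays above 0 on the first principal component. The replicates numbered 2 stood apart in both groups, at -38.2 against -13 to -3.49 in wild type and at 30.8 against 8.96 to 13.5 in miR-100 hearts. Heart muscle markers had row means between 15.59 and 19.79, as the tissue label implies, and 0 of 8 passed the test. In bulk tissue, fewer cells of a type and less RNA per cell cannot be told apart. Each array is read as its own mouse, which the labels imply but do not state, so a p-value here covers only the spread among these 8 samples.

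Most genes of the type I antiviral program had positive differences in the miR-100 hearts, none large enough to pass the test across all rows. The difference was above 0 for 16 of 21 type I genes and for 3 of 10 type II genes, against 46.9% of all rows. The type I genes that differed most, from Ifih1 to Ifit1, were 1.32-fold to 1.59-fold higher. None of the 42 members passed an adjusted p of 0.05 (limma, 0 called), a threshold that 0.14% of all rows passed (0.0946% higher and 0.045% lower), and the lowest adjusted p was 0.356 (Ifit2). At an unadjusted p under 0.05, 10 of 42 members were higher, against 3.55% of all rows, and all 10 were type I genes. At that threshold 2 of 42 were lower, Psmb9 and Ifitm1, against 4.17% of all rows. The 4 values of each group did not overlap in 3 members, Mx2, Oas2 and Eif2ak2, each higher in the miR-100 hearts, and 0 members were lower without overlap. Over all rows 4.54% did not overlap, 2.21% higher and 2.33% lower.

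**Figure D2:**
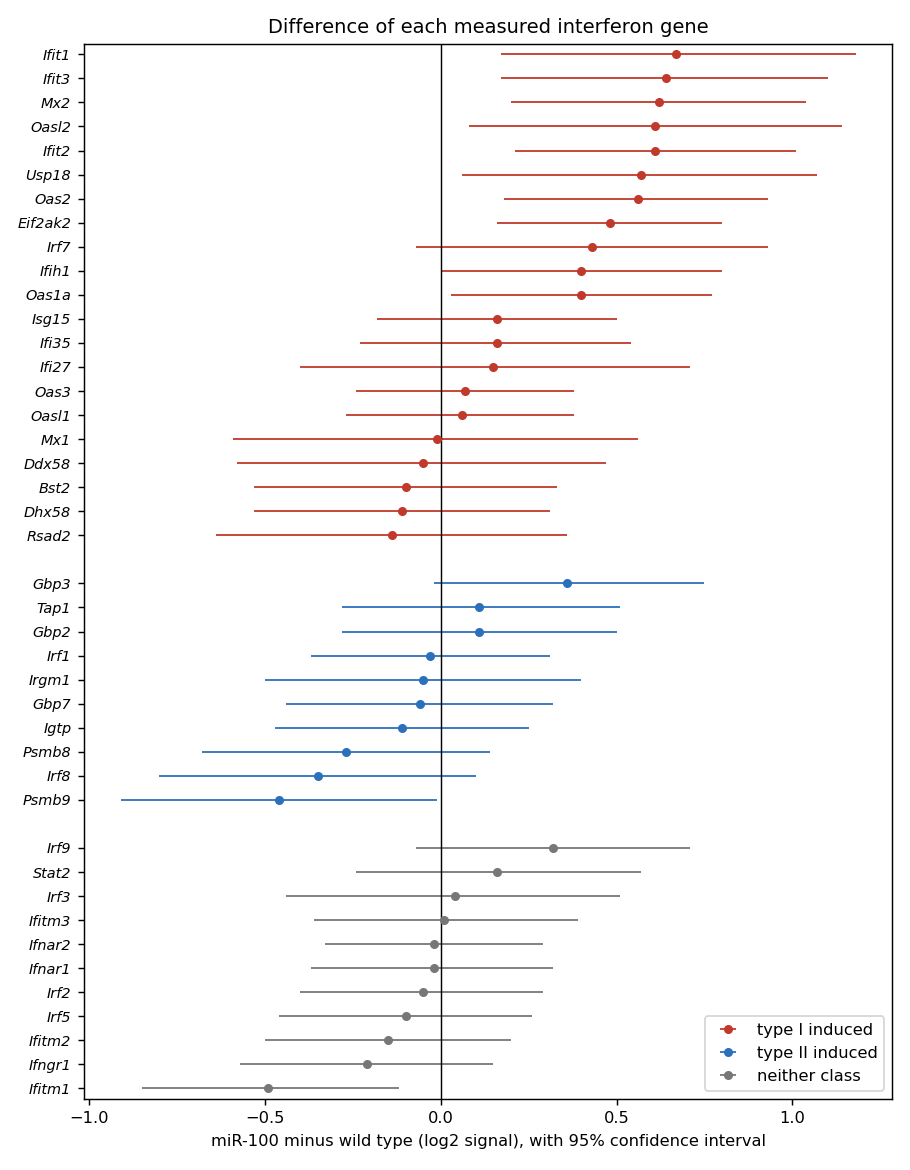
Difference in log2 signal (miR-100 minus wild type, n = 4 arrays each) for the 42 measured interferon genes, with 95% confidence intervals from limma. Type I induced genes (red) reach from -0.14 to 0.67, type II induced genes (blue) from -0.46 to 0.36, and genes of neither class (grey) from -0.49 to 0.32.

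The receptor genes differed little. Ifnar2, a chain of the type I receptor, had values of 12.77, 13.03, 12.84 and 12.91 in wild type replicates 1 to 4 and 12.89, 13.06, 12.66 and 12.87 in miR-100 replicates 1 to 4. The groups covered the same range, and the difference was -0.02 (95% confidence interval -0.33 to 0.29). Ifnar1, the other chain, also differed by -0.02. Ifngr1, the ligand-binding chain of the type II receptor, had 11.51, 11.88, 11.34 and 11.41 in wild type and 11.19, 11.36, 11.59 and 11.16 in miR-100 hearts. Here 2 miR-100 arrays lay below the lowest wild type array, and the difference was -0.21 (interval -0.57 to 0.15, limma adjusted p = 0.848).

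Among the transcription factors that carry the signal, Irf9, the DNA-binding subunit of the type I complex, had 6.94, 6.36, 6.86 and 6.93 in wild type and 6.73, 7.06, 7.26 and 7.31 in miR-100 hearts. In 3 of 4 miR-100 arrays it was above every wild type array, with a difference of 0.32 (interval -0.07 to 0.71). Stat2, its partner, differed by 0.16. Irf7, which amplifies the type I response and is itself induced by it, had 4.55, 4.69, 5.02 and 4.05 in wild type and 5.02, 5.42, 4.45 and 5.15 in miR-100 hearts. Wild type replicate 3 was level with miR-100 replicate 1 and above replicate 3, and the difference was 0.43 (interval -0.07 to 0.93, limma adjusted p = 0.708).

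The factors linked to interferon gamma and the constitutive factors gave differences at or below 0, or close to it. Irf1, an early target of interferon gamma, had 7.77, 7.66, 8.09 and 7.59 in wild type and 7.68, 7.88, 7.55 and 7.87 in miR-100 hearts, a difference of -0.03. Irf8, a factor of myeloid cells that interferon gamma induces, had 5.57, 5.65, 5.89 and 4.84 in wild type and 5.26, 4.89, 5.25 and 5.16 in miR-100 hearts. Of its wild type arrays 3 lay above all miR-100 arrays and replicate 4 lay below them, for a difference of -0.35 (interval -0.80 to 0.10). Irf2, which opposes Irf1 at shared sites, had 9.41, 9.91, 9.74 and 9.79 in wild type and 9.74, 9.38, 9.76 and 9.76 in miR-100 hearts. Irf2, Irf3 and Irf5, the last 2 being factors that act downstream of RNA sensors and Toll-like receptors, differed by -0.05, 0.04 and -0.10.

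Of the 4 sensors, 2 were higher at an unadjusted p under 0.05. Eif2ak2 encodes PKR, a kinase that halts translation on binding double-stranded RNA. Its values were 7.81, 7.60, 7.78 and 7.48 in wild type and 8.02, 8.39, 8.07 and 8.11 in miR-100 hearts. The groups did not overlap, and the difference was 0.48 (SE 0.15, interval 0.16 to 0.80, limma adjusted p = 0.361). Ifih1, which encodes the long double-stranded RNA sensor MDA5, had 9.11, 8.79, 8.39 and 8.58 in wild type and 8.88, 9.41, 8.95 and 9.24 in miR-100 hearts. In 2 of 4 miR-100 arrays it was above every wild type array, with a difference of 0.40 (limma adjusted p = 0.643). The related helicases differed in the other direction, with -0.05 for Ddx58, which encodes RIG-I, and -0.11 for Dhx58, which encodes LGP2. In Ddx58 miR-100 replicate 1 was lowest at 7.73, while the other 3 miR-100 arrays lay between 8.57 and 8.94, and without that array its difference was 0.22. Over the fits without each array in turn, the Ddx58 difference ran from -0.19 to 0.22.

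The Ifit genes, whose proteins bind foreign RNA at its 5 prime end or restrain translation, had the most alike differences of the families. Their arrays did not rank alike, since wild type replicate 4 was lowest of its group in Ifit2 and Ifit3 but not in Ifit1. Ifit1 had 4.68, 4.66, 5.66 and 5.55 in wild type and 6.0, 5.96, 5.67 and 5.61 in miR-100 hearts. Wild type replicates 1 and 2 were about 1 log2 unit below replicates 3 and 4, and the groups overlapped only through wild type replicate 3 and miR-100 replicate 4. Its difference was 0.67 (SE 0.23, interval 0.17 to 1.18, limma adjusted p = 0.433), or 1.59-fold. Ifit2 had 7.11, 6.78, 7.32 and 6.73 in wild type and 7.92, 7.74, 7.25 and 7.47 in miR-100 hearts, a difference of 0.61 (SE 0.19, interval 0.21 to 1.01, limma adjusted p = 0.356). In it, miR-100 replicate 3 fell within the wild type range and the other 3 were above it.

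Ifit3 had 7.96, 7.70, 8.39 and 7.68 in wild type and 8.49, 9.13, 8.30 and 8.35 in miR-100 hearts. Its difference was 0.64 (SE 0.21, interval 0.17 to 1.10, limma adjusted p = 0.412), with wild type replicate 3 above 2 of the miR-100 arrays. Ifit3b, a near-identical copy that is not a member, differed by 0.56, and probes may not tell the copies apart, so both are uncertain as separate genes. All 3 members lie on chromosome 19, and Ifit2 and Ifit3 are close neighbours there.

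**Figure D3:**
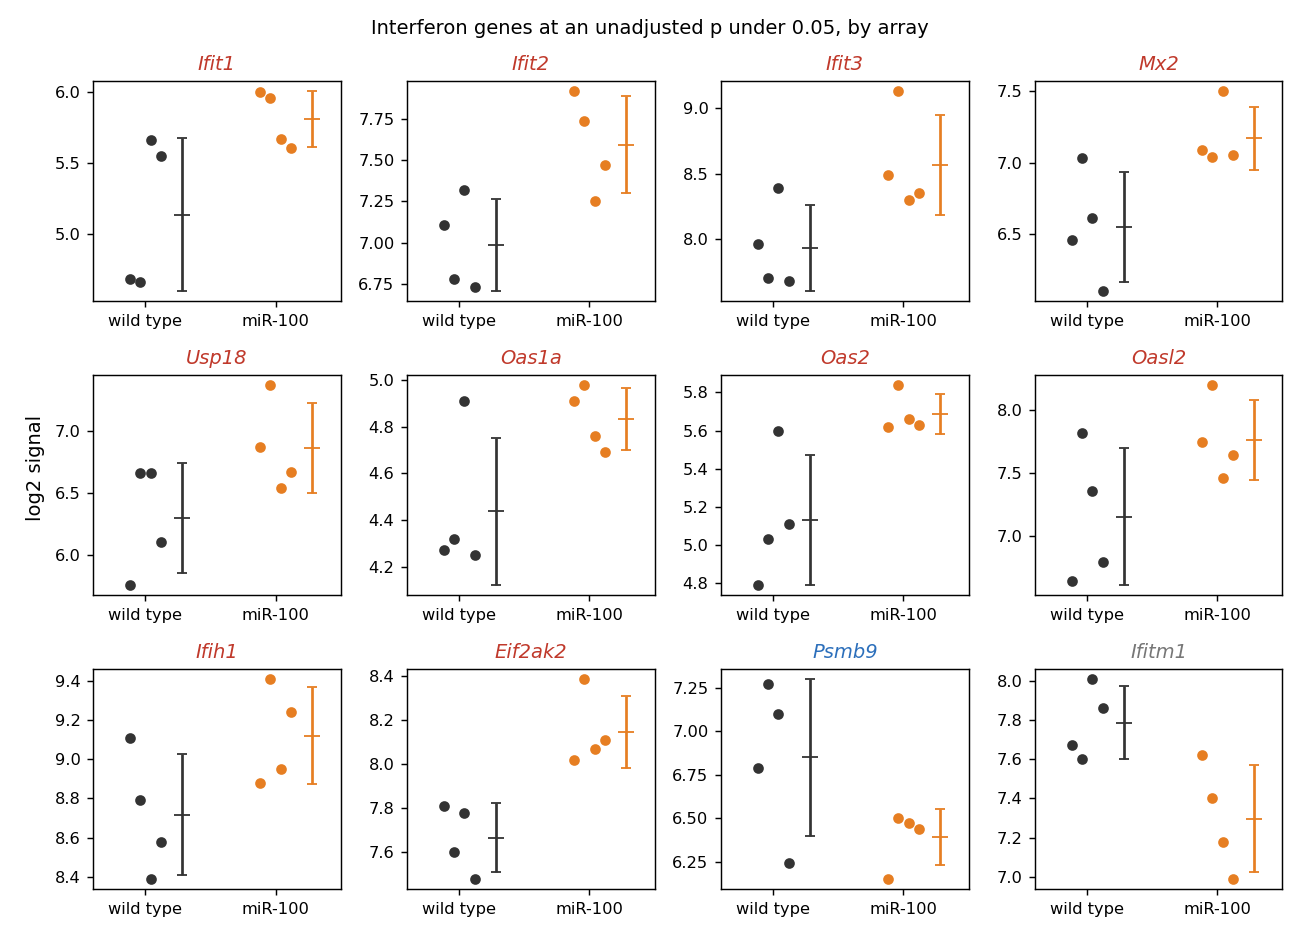
Log2 signal of the 12 members at an unadjusted p under 0.05 in each of 4 wild type (black) and 4 miR-100 (orange) hearts, with mean and SD beside the points. Each panel has its own axis range. The groups do not overlap in Mx2, Oas2 and Eif2ak2, and Psmb9 and Ifitm1 are lower in the miR-100 hearts.

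Mx2, a gene of the dynamin-like GTPase family, had 6.46, 7.03, 6.61 and 6.10 in wild type and 7.09, 7.04, 7.50 and 7.05 in miR-100 hearts. The groups were separated by 0.01 between wild type replicate 2 and miR-100 replicate 2, and the difference was 0.62 (SE 0.20, limma adjusted p = 0.380). Mx1, whose allele is defective in C57BL/6 mice, differed by -0.01 with wild type values from 4.06 to 5.39 and miR-100 values from 4.29 to 5.27, so both groups were spread widely around the same level. The sign of the Mx1 difference changed with quantile normalization (0.02) and with array weights (0.01).

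The oligoadenylate synthetases make the messenger that activates an RNA-cutting enzyme. All 5 members of the family, counting the synthetase-like genes Oasl1 and Oasl2, had differences above 0. Oas2 had 4.79, 5.03, 5.60 and 5.11 in wild type and 5.62, 5.84, 5.66 and 5.63 in miR-100 hearts, without overlap. Its difference was 0.56 (SE 0.17, interval 0.18 to 0.93, limma adjusted p = 0.376). Oas1a had 4.27, 4.32, 4.91 and 4.25 in wild type and 4.91, 4.98, 4.76 and 4.69 in miR-100 hearts. Wild type replicate 3 was level with the miR-100 arrays and the other 3 were below them, for a difference of 0.40 (SE 0.17).

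Oasl2, an oligoadenylate synthetase-like gene, had 6.64, 7.82, 7.36 and 6.79 in wild type and 7.75, 8.20, 7.46 and 7.64 in miR-100 hearts. The difference was 0.61 (SE 0.25, limma adjusted p = 0.568), and wild type replicate 2 lay above 3 of the miR-100 arrays. Oas3 and Oasl1 were dim, at the percentiles 2.46 and 0.288 of all row means, and differed by 0.07 and 0.06. Without single arrays the Oasl1 difference ran from -0.02 to 0.14.

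Isg15 encodes a ubiquitin-like protein that is attached to other proteins during the response, and Usp18 encodes the protease that removes it and that also dampens the type I receptor. Usp18 had 5.76, 6.66, 6.66 and 6.11 in wild type and 6.87, 7.37, 6.54 and 6.67 in miR-100 hearts, a difference of 0.57 (SE 0.23, limma adjusted p = 0.571). In 3 of 4 miR-100 arrays it was above every wild type array. Isg15 was dim, at percentile 25.7, and differed by 0.16 (interval -0.18 to 0.50).

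The remaining type I effectors showed differences near 0. Ifi35 had 8.32, 8.17, 8.76 and 8.52 in wild type and 8.82, 8.80, 8.29 and 8.48 in miR-100 hearts, a difference of 0.16. Ifi27 had 8.08, 7.37, 8.04 and 6.75 in wild type and 8.03, 7.62, 7.56 and 7.65 in miR-100 hearts, and differed by 0.15 (interval -0.40 to 0.71). Every miR-100 value of Ifi27 lay inside the wild type range. Rsad2, which encodes the antiviral enzyme viperin, and Bst2, which encodes the virus tether tetherin, differed by -0.14 and -0.10. In both genes miR-100 replicate 3 was the lowest of the 8 arrays, at 7.11 and 6.72, and without it the differences were 0.10 and 0.06. Over the fits without each array in turn they ran from -0.27 to 0.10 for Rsad2 and from -0.24 to 0.06 for Bst2. The difference of Ifi27 was as unsteady in these fits, from -0.11 to 0.33.

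In the type II class, the GTPases that attack vacuoles of intracellular microbes gave mixed and small differences. Gbp3 had 8.71, 8.50, 8.89 and 8.17 in wild type and 9.05, 9.10, 8.64 and 8.93 in miR-100 hearts. In 3 of 4 miR-100 arrays it was above every wild type array, with a difference of 0.36 (interval -0.02 to 0.75, limma adjusted p = 0.682). Gbp7 had 10.77, 10.11, 10.68 and 10.40 in wild type and 10.65, 10.55, 10.21 and 10.32 in miR-100 hearts, a difference of -0.06 with each miR-100 value inside the wild type range. Gbp2 differed by 0.11, and the immunity-related GTPase genes Igtp and Irgm1 by -0.11 and -0.05. The Gbp genes are related copies that lie next to each other, and probes may be shared between them.

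Psmb8 and Psmb9 encode inducible subunits of the immunoproteasome, which cuts proteins into peptides for display, and both members had differences below 0. Psmb9 had 6.79, 7.27, 7.10 and 6.24 in wild type and 6.15, 6.50, 6.47 and 6.44 in miR-100 hearts. Wild type replicate 4 was level with the miR-100 arrays and the other 3 were above them, and the difference was -0.46 (SE 0.21, interval -0.91 to -0.01, limma adjusted p = 0.629). Psmb8 had 7.49, 7.83, 7.73 and 6.96 in wild type and 7.06, 7.26, 7.36 and 7.25 in miR-100 hearts, with the same order of arrays in the wild type group and a difference of -0.27 (interval -0.68 to 0.14). Tap1, which moves the peptides into the endoplasmic reticulum and lies beside both genes, differed by 0.11.

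The Ifitm genes encode membrane proteins that block virus entry, and both types of interferon induce them. Ifitm1 had 7.67, 7.60, 8.01 and 7.86 in wild type and 7.62, 7.40, 7.18 and 6.99 in miR-100 hearts. In 3 of 4 miR-100 arrays it was below every wild type array, with a difference of -0.49 (SE 0.17, interval -0.85 to -0.12, limma adjusted p = 0.433). Ifitm2 had 13.25, 13.13, 13.10 and 13.10 in wild type and 13.13, 13.19, 13.10 and 12.57 in miR-100 hearts, where replicate 4 alone was low, and differed by -0.15. Ifitm3, the broadly expressed antiviral member of the family, differed by 0.01.

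Set side by side, the type I class had a median difference of 0.40 and the type II class of -0.05, a gap of 0.45. The genes of neither class had a median of -0.02. The members were chosen with earlier results of these arrays known, so the gap is a description and carries no test. It depended on which genes were counted: with Ifitm1, Ifitm2, Ifitm3, Stat2 and Irf9 added to the type I class, its median was 0.16 and the gap 0.22. Leaving out single arrays gave type I medians from 0.26 (without wild type replicate 4) to 0.42 and type II medians from -0.16 (without wild type replicate 2) to 0.02.

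The same was seen array by array, after each gene was centred on its mean over the 8 arrays and the genes of a class were averaged. The type I mean was -0.16, -0.11, 0.06 and -0.37 in wild type replicates 1 to 4 and 0.11, 0.35, -0.03 and 0.15 in miR-100 replicates 1 to 4. The groups overlapped, since wild type replicate 3 was above miR-100 replicate 3. The type II mean was 0.16, 0.03, 0.19 and -0.23 in wild type and -0.04, 0.08, -0.15 and -0.04 in miR-100 hearts.

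Both classes were low in wild type replicate 4, and type I minus type II within an array removed that shared part. This gap was -0.32, -0.14, -0.13 and -0.14 in wild type and 0.15, 0.27, 0.12 and 0.19 in miR-100 hearts, so it was negative in 4 of 4 wild type hearts and positive in 4 of 4 miR-100 hearts. Centring makes the gaps of the 8 arrays add up to about 0, so the signs of the groups are not independent of each other.

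**Figure D4:**
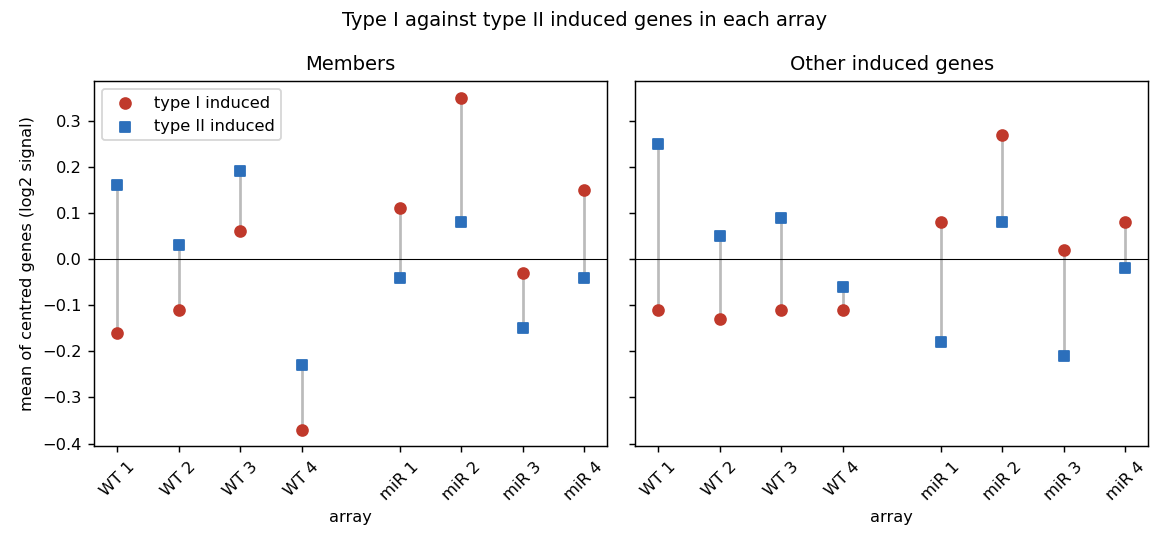
Mean of the centred log2 signals of type I (red circles) and type II (blue squares) induced genes in each of 8 arrays, for the members (left, 21 and 10 genes) and for other genes of the same classes (right, 29 and 24 genes); WT is wild type and miR is miR-100. Red lies below blue in the 4 wild type arrays and above it in the 4 miR-100 arrays in both panels.

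Single hearts differed across many members at once. Wild type replicate 4 was the lowest of its group in 12 of 21 type I genes and 6 of 10 type II genes, and the highest in 0 of either. Wild type replicate 3 was the highest of its group in 11 of 21 type I genes. Among the miR-100 hearts, replicate 2 was the highest in 12 of 21 type I genes and replicate 3 the lowest in 10 of 21. The count of 10 members higher at an unadjusted p under 0.05 was 6 without wild type replicate 4 and 6 without miR-100 replicate 2. The count of 2 lower members was 4 without wild type replicate 4 and 1 without any other array. The share of all rows called in these fits was not counted, so a loss of calls among the members cannot be told from a loss over all rows.

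**Figure D5:**
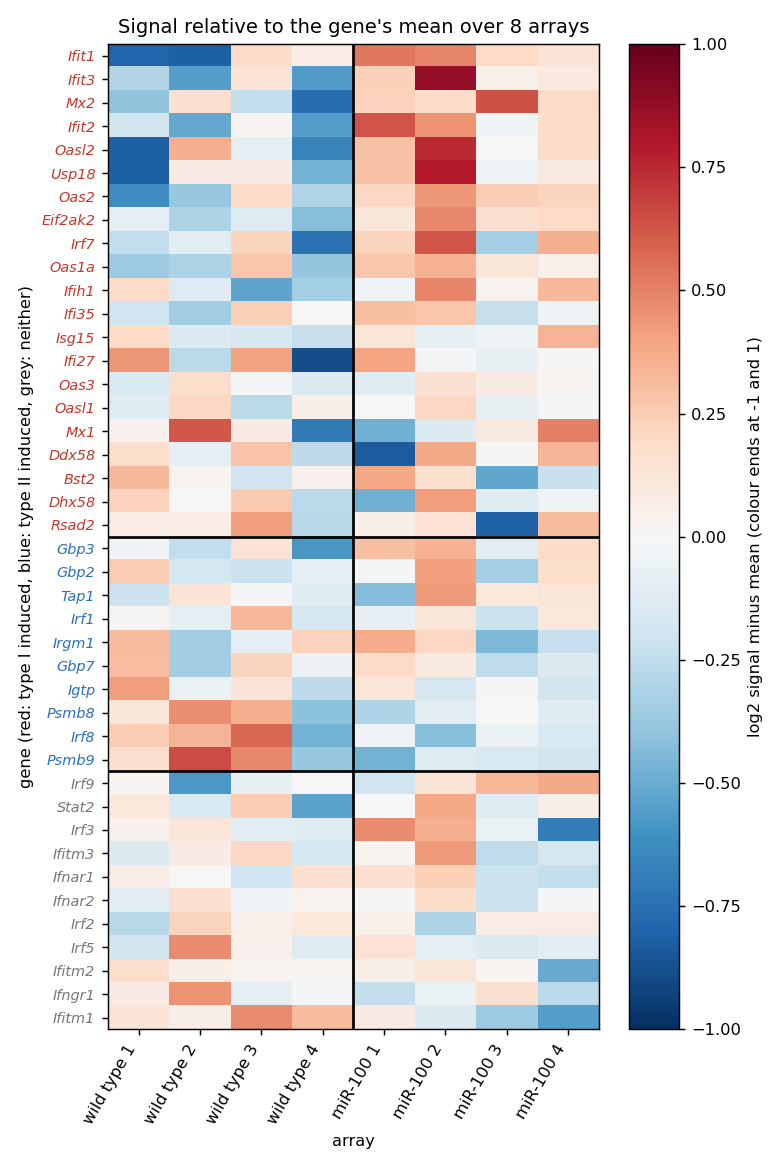
Log2 signal of the 42 members minus each gene's mean over the 8 arrays, with red above and blue below the mean and colours ending at -1 and 1. Rows are grouped as type I induced (red names), type II induced (blue) and neither class (grey), ordered by difference. The upper type I rows are mostly blue in wild type replicates 1, 2 and 4 and red in the miR-100 arrays.

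Type I genes with and without the promoter letters overlapped in their differences. The 10 measured type I genes with ISRE letters had a median difference of 0.28, from -0.14 to 0.67, and 7 of 10 were above 0. The 5 with a promoter but without these letters, among them Ifit2 and Oasl2, had a median of 0.43, and 5 of 5 were above 0. Mx1, Mx2, Usp18, Oas2, Ifi27 and Dhx58 had no promoter in the RefSeq table and are not counted here. In the type II class the 5 genes with GAS letters (Gbp7, Igtp, Psmb8, Irf1 and Irf8) had differences from -0.35 to -0.03, and the 5 without them from -0.46 to 0.36, with 3 of 5 above 0. Of the 5 type I genes with GAS letters, 4 were above 0, with a median of 0.40.

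Further genes of the pathway came from lists made by function, also with earlier results known, so they are no independent support for the members. Of 29 other type I induced genes, 27 had differences above 0, with a median of 0.22, and 0 passed over all rows (limma), while 4 were higher and 0 lower at an unadjusted p under 0.05. Over all rows 46.9% had differences above 0, and 3.55% were higher and 4.17% lower at that threshold. Rtp4, an interferon-induced chaperone of receptors, had 6.24, 6.35, 6.30 and 6.67 in wild type and 7.07, 7.25, 7.03 and 7.25 in miR-100 hearts. The groups did not overlap, and its difference was 0.76 (SE 0.15, limma adjusted p = 0.0776, 0.0408 among the rows above the median row mean, and from 0.0656 to 0.232 without single arrays). Averaged as above, these genes gave -0.13 to -0.11 in the wild type hearts and 0.02 to 0.27 in the miR-100 hearts.

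Of 24 other type II induced genes 11 had differences above 0 and 13 below, with a median of -0.07. In this list 0 passed over all rows, and 2 were higher and 4 lower at an unadjusted p under 0.05 (limma), against the same shares of all rows. Iigp1, an immunity-related GTPase gene, had 11.98, 12.18, 11.15 and 11.73 in wild type and 10.55, 10.98, 9.37 and 10.40 in miR-100 hearts, without overlap. Its difference was -1.44 (interval -2.09 to -0.78, limma adjusted p = 0.118). Its adjusted p was 0.0402 with an intensity trend in limma, 0.16 with array weights and from 0.0681 to 0.306 without single arrays. The other 3 lower genes, named after their values were seen, encode chains of the class II antigen-presenting molecules. H2-Aa, H2-Eb1 and H2-Ab1 differed by -1.02, -0.89 and -0.52 (limma adjusted p = 0.212, 0.144 and 0.608). Psmb10, the third inducible subunit of the immunoproteasome, and Tapbp, which loads peptides, were the 2 higher genes, at 0.44 and 0.30.

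The interferon genes themselves were dim, with 11 of 12 ligand rows below the median row mean. Of these, 5 had differences above 0 and 7 below, with a median of -0.12, and Ifna4 had the lowest p of the list at -0.40, at percentile 3.89 of all row means. Ifnb1 differed by -0.12 and Ifng by -0.11. Of 10 other receptor and signalling genes 0 passed, with a median of -0.12, and Ptpn11, a tyrosine phosphatase gene, had the lowest p at 0.29. Of 16 other sensing genes 10 were above 0, with a median of 0.12 and 0 passing. The DNA sensor gene Mb21d1, also named Cgas, had the lowest p there and differed by -0.50 (limma adjusted p = 0.590). At an unadjusted p under 0.05, 0 genes of these 3 lists were higher and 2 were lower, Ifna4 and Mb21d1, while 7.73% of all rows passed in either direction.

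Markers of other cells were given beside these genes because immune cells also express them. Macrophage markers, summed on the linear scale and expressed as log2, ranged from 12.08 to 12.77 in wild type and from 12.19 to 12.47 in miR-100 hearts, and 7 of 14 had differences above 0 with a median of -0.01. Their differences ran from -0.64 (Lyve1) and -0.54 (Timd4) to 0.25 (Ccr2), with limma adjusted p = 0.469, 0.468 and 0.888. T and natural killer cell markers summed to 7.80 to 7.99 and 7.85 to 7.99, with Cd3e, Cd3g and Klrb1c among the dimmest 25% of rows. B cell markers summed to 5.44 to 5.74 and 5.47 to 5.70, with Ms4a1 and Cd79a that dim.

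Neutrophil markers summed to 7.14 to 7.32 in wild type and 7.05 to 7.27 in miR-100 hearts, with S100a8, Retnlg and Mmp8 among the dimmest 25%, and 2 of 6 differences were above 0, from -0.37 (S100a8) to 0.41 (Cxcr2). The sum for plasmacytoid dendritic cells, which make type I interferon, was set by Cox6a2 and Tcf4, which heart tissue also expresses. That sum ran from 18.93 to 18.97 in wild type and from 18.68 to 18.91 in miR-100 hearts, without overlap. In this list 2 of 7 differences were above 0, from -0.39 (Pacsin1) to 0.32 (Ly6d), with a median of -0.08. Siglech, a marker of these cells, had means of 5.46 in both groups, and Ccr9 and Pacsin1 were among the dimmest 25%. Endothelial markers summed to 17.34 to 18.10 in wild type and 17.30 to 17.70 in miR-100 hearts, with 3 of 8 differences above 0, from -0.21 (Fabp4) to 0.55 (Cldn5, limma adjusted p = 0.379). Fibroblast markers summed to 17.78 to 17.97 and 17.84 to 18.04. Smooth muscle and pericyte markers summed to 14.88 to 15.42 and 15.17 to 15.82, with 3 of 7 differences above 0, a median of -0.06 and a range from -0.31 (Kcnj8) to 1.11 (Acta2, limma adjusted p = 0.203). The 2 measured blood markers summed to 7.68 to 8.55 and 7.75 to 8.50. None of the marker lists had a gene past the adjusted threshold (0 in limma). At an unadjusted p under 0.05 (limma), 2 of 14 macrophage markers were lower, Lyve1 and Timd4, and 0 higher. In the neutrophil list Cxcr2 was higher and S100a8 lower at that threshold. In the smooth muscle and pericyte list Acta2 was higher and Kcnj8 lower, and in the endothelial list Cldn5 was higher. Over all rows 3.55% were higher and 4.17% lower. The part of any cell type in the interferon values was not tested.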

How the data were processed

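Left ventricular RNA was measured on 8 Affymetrix arrays, 4 per group, each read as 1 mouse. Per the labels' protocols, RNA was extracted with TriPure and labelled with biotin by the WT Plus kit. The authors deposited log2 signals, 1 value per row and array, and the submitters' processing notes name Transcriptome Analysis Console 4.0. How signals were summarized and normalized, and the build, are not given in the sources used here. With 4 arrays per group, precision is limited by their number.

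Of 22206 rows, 19572 had 1 gene symbol, 0 had several and 2634 had none. All 42 measured members had 1 row. Rows were neither transformed nor filtered. The 2 groups were compared by limma's lmFit and eBayes (version 3.58.1, R 4.3.3), with Benjamini-Hochberg adjustment over all rows, in code tested on simulated data. The labels name no pairing of the mice, so the replicate numbers were not used as pairs in the reported fit.

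Members, lists, classes and tests were chosen with earlier results of these data known. Values in every array are given for members without overlap or at an unadjusted p under 0.05, and for the brightest and the most different member of each role. From each pathway list the gene with the lowest p is named, and other genes were named after their values were seen. Promoters and the microRNA come from RefSeq (GRCm38.p6). Alternatives were other variance models, array weights, normalizations, filters, thresholds and classes, a replicate block, and leaving out each array.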

Additional observations from a re-analysis of the deposited data

Results flagged for a closer look

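Among 90 groups of 4 values checked (each member in each group, and the class means), 5 held an array far from the other 3, which is about the 1 in 20 that chance gives. Mx2 was high in miR-100 replicate 3, at 7.50 against 7.04 to 7.09. Oas1a was high in wild type replicate 3, at 4.91 against 4.25 to 4.32. Ifitm2 was low in miR-100 replicate 4, at 12.57 against 13.10 to 13.19. Irf2 was low in miR-100 replicate 2, at 9.38 against 9.74 to 9.76. Irf9 was low in wild type replicate 2, at 6.36 against 6.86 to 6.94.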

How the results depend on the processing

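No member passed in any of the 16 alternative fits that can move a difference or its p (0 in each). In the reported fit 0 passed at an adjusted p of 0.1. Of 658 member values under the 16 fits, 618 kept their direction. The intensity trend, robust moderation, the row filters and the replicate block change only the p, so directions in those fits were fixed in advance. Averaging the rows of a symbol moved no member's difference, since each member has 1 row. Spread between hearts limits what could be called: the members' 95% confidence intervals reached a median of 0.39 to either side. In the fits without each array in turn, the count of higher members at an unadjusted p under 0.05 ran from 6 to 12, that of lower members from 1 to 4, the gap between the class medians from 0.32 to 0.52, and the type II median from -0.16 to 0.02. The count of lower members was 1 with an intensity trend. The share of all rows at that threshold was counted only in the reported fit. With Ifitm1, Ifitm2, Ifitm3, Stat2 and Irf9 in the type I class its median was 0.16 and the gap 0.22, the gap was 0.33 without Irf7, Irf1 and Irf8, and it was 0.37 with means. Among members above the median row mean, an alternative chosen after seeing the data, the gap was 0.49. The replicate numbers gave correlations of the arrays' deviations of 0.0072, -0.0596, 0.0663 and -0.0239 for replicates 1 to 4, with 1 of 4 wild type arrays correlating best with its own number. With the replicate block 9 members were higher and 2 lower at an unadjusted p under 0.05. Each replicate number holds 1 array of each group, so the medians of 0.40 and -0.05 could not change. In that fit the limma adjusted p of Iigp1 was 0.00906 and that of Rtp4 0.152.

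Directions reversed for members whose differences lay between -0.14 and 0.15. Mx1 was 0.01 with array weights and 0.02 with quantile normalization, and Ifnar2 was 0.01 with array weights. Without single arrays the ranges of the members that changed sign were -0.25 to 0.19 for Mx1, -0.02 to 0.14 for Oasl1, -0.27 to 0.10 for Rsad2, -0.24 to 0.06 for Bst2, -0.11 to 0.33 for Ifi27, -0.19 to 0.22 for Ddx58, -0.27 to 0.03 for Dhx58, 0 to 0.25 for Gbp2, -0.18 to 0.04 for Gbp7, -0.21 to 0.01 for Igtp, -0.18 to 0.09 for Irgm1, -0.01 to 0.28 for Tap1, -0.09 to 0.07 for Irf1, -0.13 to 0.10 for Ifitm3, -0.15 to 0.04 for Irf2, -0.12 to 0.27 for Irf3, -0.18 to 0.04 for Irf5, -0.11 to 0.05 for Ifnar1 and -0.08 to 0.05 for Ifnar2. The cause was not tested.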
